A study of Mus musculus with 6 samples.

Results

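The Ribo-seq library labelled kidney is 1 of 6 mouse tissue libraries of this series, and it was chosen by its label alone. Ribo-seq sequences the mRNA fragments that translating ribosomes protect from nuclease, so that the reads on a coding sequence (CDS) give its ribosome density. The other 5 carry the labels heart, lung, brain, colon and small intestine, and all 6 were made from untreated wild-type (WT) C57BL/6J mice at 4 weeks of age, with 1 library per tissue and no transgene, agent or mutation in any of them. Whole tissue was lysed, so each library mixes all cell types of its tissue, and the number of animals behind a library is not given in the sources used here. Libraries of macrophages, which the study also made, were not used here. Because no tissue has a replicate, every comparison below describes these libraries, and none carries a replicate error or a test.

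Values are RPKM, the reads on a CDS scaled to the length of the CDS and to the library's total of reads on all CDSs. The difference of an mRNA is its log2(RPKM + 1) in the library labelled kidney minus the mean of log2(RPKM + 1) over the other 5 libraries, and it understates the change of mRNAs with low RPKM. An mRNA was called above or below the other libraries when this difference was at least 2 or at most -2, which is 4-fold on that scale. Of 18437 mRNAs listed in any library, 15238 had an RPKM of at least 1 in 1 library or more and were compared. Whole reads were recovered from the RPKM values of every library. There were 7583374 reads on CDSs in the library labelled kidney and between 4504853 and 10635031 in the other 5. Intervals of RPKM are exact 95% Poisson intervals of those reads, which carry no molecular identifiers here, so that they cover counting error only.

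The markers of the kidney were nearly absent from the library labelled kidney. Over 21 kidney mRNAs, the summed RPKM was 31.8 here and 31622 in the library labelled colon, and 5 of the 21 had no reads here. Umod, the uromodulin of the thick ascending limb, had 10.9 RPKM here, from 159 reads, and 16438 RPKM under the label colon. Slc34a1, the phosphate transporter of the proximal tubule, had 4.00 RPKM and 1361 RPKM in the same libraries. The collecting duct water channel Aqp2, the podocyte protein Nphs1 and the renin gene Ren1 had no reads at all in the library labelled kidney, where 3 reads would give 0.487, 0.105 and 0.328 RPKM. In this bulk material, fewer cells of a type, less RNA per cell and fewer ribosomes per mRNA cannot be told apart. Which tissue the material came from was not tested. The label of this library and the kidney markers therefore differ, and the library is named by its label throughout. The 4 colon markers Muc2, Car1, Slc26a3 and Klk1, which were chosen with these values known, were all highest in the library labelled kidney.

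The other libraries set the reference, so their own markers matter for each difference. Summed over the gene lists, which were chosen with earlier results of these data known, the heart mRNAs were highest under the label heart. The lung mRNAs were highest under the label lung. The 21 mRNAs of small intestine enterocytes were highest in the library labelled brain, with a sum of 93102 RPKM, and the 10 brain mRNAs in the library labelled small intestine, with 12744 RPKM. The mean of the other 5 thus holds 1 library rich in gut epithelium, that labelled brain, which lowers the difference of any mRNA of gut epithelium in general. The difference from the library labelled brain alone is given where it bears on a result. It has no replicate check either.

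The mucosa of the colon is a single layer of epithelium with deep crypts and no villi. Goblet cells secrete the gel-forming mucin and its partners, which keep bacteria away from the cells, and absorptive colonocytes take up salt, water and short-chain fatty acids made by the microbiota. The small intestine instead carries enterocytes for fat, peptide and sugar uptake, and Paneth cells that secrete antimicrobial defensins. Genes of the Hox family, the homeobox factors that mark position along the body axis, are known to distinguish the hindgut from the small intestine.

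Klk1 and Kri1 took more reads than nearly all other mRNAs of the library labelled kidney, and their sequences bear on whether such reads can be placed. Klk1 encodes tissue kallikrein, a secreted serine protease, and it has many close relatives in the mouse genome. Its CDS of 783 nt lies on chromosome 7 of GRCm39, in a gene that runs from 43874725 to 43879048 on the plus strand. Of its 755 windows of 29 nt, about the length of a ribosome footprint, 435 (57.6%) occur letter for letter in transcripts of 13 other genes, and 660 (87.4%) lie within 2 mismatches of at least 1 of the 15 other kallikreins listed. The nearest of these 15 is Klk1b5. The first line below is a window in exon 1 (chr7:43874907-43874935, bases 5 to 33 of the CDS) that both genes share, where no read can be assigned. The following pair is a window in exon 5 (chr7:43878926-43878954, bases 719 to 747) with 7 mismatches, shown in capitals. There a read of Klk1 can be told apart from the 15 listed kallikreins. Relatives outside this list, such as Klk1b1 and Klk1b11, were not compared within 2 mismatches. All 3 are written 5′ to 3′ on the plus strand.
Klk1 and Klk1b5, bases 5 to 33: ggttcctgatcctgttcctagccctgtcc
Klk1, bases 719 to 747: cGggtatctacaccaGaGttTtAaaTttC
Klk1b5, bases 719 to 747: cAggtatctacaccaAaCttAtTaaGttT

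Kri1, a nucleolar factor of ribosome biogenesis, has a CDS of 2115 nt in 19 coding exons on the minus strand of chromosome 9 of GRCm39. It holds a run of 9 GAG codons in frame, 27 nt long, from base 766 to base 792 of the CDS, in coding exon 9 (chr9:21192355-21192381). This run alone is shorter than a footprint, but more GAA and GAG codons follow it directly. Of 2087 windows of 29 nt of the Kri1 CDS, 21 occur letter for letter in transcripts of other genes, 65 genes in all. Windows within 2 mismatches were not counted for Kri1, so this count does not show how many of its reads can be placed. The run is shown in capitals within 90 nt of the CDS, written 5′ to 3′ on the coding strand.
Kri1: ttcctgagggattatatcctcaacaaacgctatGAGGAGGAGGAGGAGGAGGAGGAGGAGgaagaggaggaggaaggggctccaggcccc

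Of the 25 mRNAs with the largest positive difference, named further on, 17 had an entry among the RefSeq promoters of build GRCm38.p6, which hold 250 bases before each gene's start. The forward motif TATAAA began 25 to 35 bases before the start in 3 of the 17 (17.6%), and in 1.96% of all 27025 promoters. On either strand, anywhere in the 250 bases, it occurred in 5 of 17 (29.4%) and in 13.0% of all promoters. The motif CAATAAA, a form of the Cdx motif (both strands), occurred in 1 of 17, that of Cyp2c55, and in 4.42% of all. CCATAAA, another form (both strands), occurred in 1, that of Agr2, and in 2.45% of all, and CAAAGTCC, a form of the Hnf4 motif (both strands), in none and in 1.22% of all. The first 3 of these motifs share their last letters ATAAA, so that on 1 strand they cannot lie at the same place. A match is a description of these letters and not a site in use. The 3 promoters with TATAAA at that distance are shown as the 60 bases before the start, 5′ to 3′ on the plus strand, with the motif in capitals.
Cyp2c55 (chr19:39006959-39007018 of GRCm38.p6): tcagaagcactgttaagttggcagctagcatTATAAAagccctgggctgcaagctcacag
Slc26a3 (chr12:31438159-31438218 of GRCm38.p6): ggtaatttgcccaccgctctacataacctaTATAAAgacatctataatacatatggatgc
1810065E05Rik (chr11:58421051-58421110 of GRCm38.p6): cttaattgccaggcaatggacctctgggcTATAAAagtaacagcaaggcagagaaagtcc

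Kri1 alone took 1677405 reads in the library labelled kidney, 22.1% of its total (95% Wilson interval 22.09 to 22.15). The share was 14.1% under the label small intestine, 6.79% under the label colon and between 0.400% and 2.01% in the remaining 3. Its RPKM was 104584 here, which was 1.57-fold its level in the next library and 3.43-fold that of mt-Atp6, the second mRNA here. The Kri1 difference was 3.20. The 10 mRNAs with most reads took 37.1% of its reads, more than in any other, where they took between 10.4% and 24.6%. With Kri1 left out of the totals this share was 20.1%, which is below the 24.8% of the library labelled heart. Where along the Kri1 mRNA the reads lie cannot be read from a value per mRNA.

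**Figure D1:**
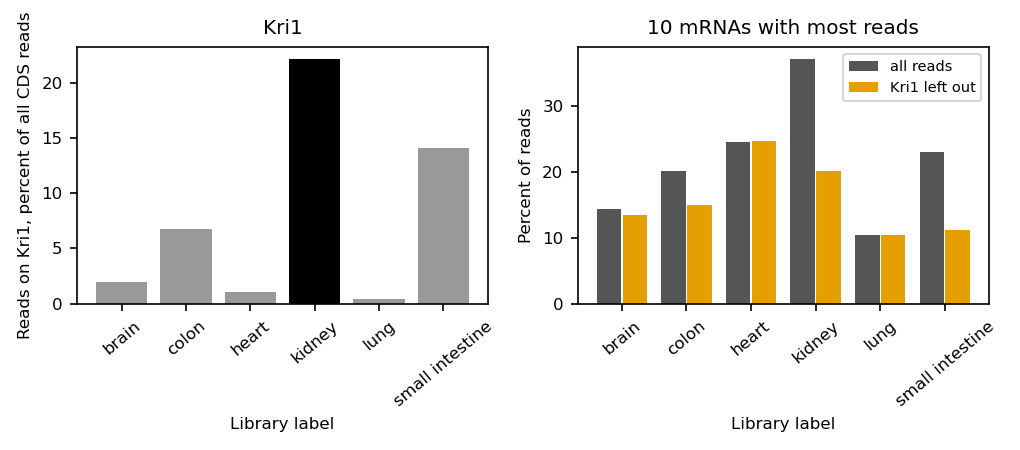
Reads taken by Kri1 (left, percent of all reads on CDSs) and by the 10 mRNAs with most reads (right, percent of reads, with all reads counted and with Kri1 left out) in each of the 6 libraries, 1 bar per library. Kri1 took 22.1% of reads in the library labelled kidney, drawn in black, and 14.1% in that labelled small intestine, and the bar of the 10 leading mRNAs in the library labelled kidney goes from 37.1% to 20.1% once Kri1 is left out.

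A share of this size pushes every other RPKM down. Leaving Kri1 out of the total of each library multiplied the RPKM of all other mRNAs by 1.28 in the library labelled kidney and by 1.00 to 1.16 in the others. The median difference over the 15238 mRNAs was -0.24 as deposited and -0.04 with Kri1 left out, a shift of 0.20, and differences below are to be read against that median. As deposited, 822 mRNAs (5.39%) were above the other libraries and 449 (2.95%) below, so that 64.7% of the calls were above. With Kri1 left out, 1104 (7.25%) were above and 369 (2.42%) below, so that 74.9% were above. All 822 remained above, and 358 of the 449 remained below. These changes follow largely from the larger factor of the library labelled kidney, and are no separate check of the calls. The library labelled kidney was the highest of the 6 for 1333 mRNAs (8.75%) as deposited and for 1853 (12.2%) with Kri1 left out. The mRNAs above took 49.0% of its reads, and without Kri1 they took 34.5% of the remaining reads.

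**Figure D2:**
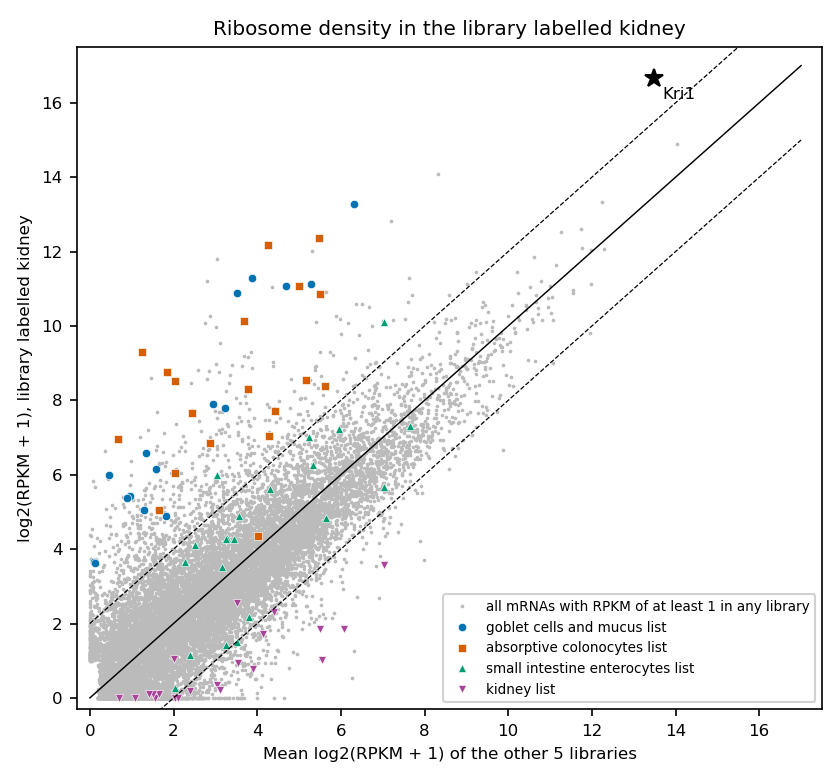
log2(RPKM + 1) in the library labelled kidney (y axis) against the mean of log2(RPKM + 1) in the other 5 libraries (x axis), 1 point per mRNA, for 15238 mRNAs, with the members of 4 lists in colour and Kri1 as a star. The solid line marks equal values and the dashed lines a difference of 2, and all 16 goblet cell mRNAs and 18 of 19 colonocyte mRNAs lie over the upper dashed line while 13 of 21 kidney mRNAs lie under the lower one.

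By the same choice, the given colon markers were all above the other libraries, 3 of the 4 within the 25 largest differences, and their median difference was 6.71 against -0.24 over all mRNAs. Muc2 encodes the gel-forming mucin of the intestine, and its gene spans 141276583 to 141308430 of chromosome 7 (GRCm39, plus strand). Muc2 had 2486 RPKM here, against 596 in the library labelled brain, 38.3 under the label heart, 8.20 under the label small intestine, 1.15 under the label colon and 0.471 under the label lung. It was 4.17-fold the next library, with an interval of 2477 to 2496 RPKM, and the difference was 7.40 as deposited and 7.71 with Kri1 left out. The library labelled kidney thus stood above all others for this mucin, the library labelled brain came second, and the remaining 4 were far lower.

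Car1 encodes a cytosolic carbonic anhydrase of colonocytes and red cell precursors, on chromosome 3 from 14831269 to 14873459 on the minus strand. Car1 had 434 RPKM here, against 37.5 in the library labelled heart, 3.17 under the label small intestine, 1.92 under the label brain, 0.284 under the label colon and no reads under the label lung. The value here was 11.6-fold that of the library labelled heart, which came second, and the difference was 6.92. Of the 4 markers, Car1 had the smallest share of its level in the library labelled brain.

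Slc26a3, on chromosome 12 from 31440870 to 31523916 on the plus strand, encodes the exchanger of chloride for bicarbonate in the surface epithelium of the colon. Slc26a3 had 367 RPKM here, against 62.2 in the library labelled brain, 7.21 under the label heart, 0.691 under the label small intestine, 0.293 under the label colon and no reads under the label lung. This was 5.90-fold the library labelled brain, with a difference of 6.49. Apart from that library, none reached 10 RPKM.

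Klk1 was the marker with the highest level and the least separation. Klk1 had 17498 RPKM here, against 13509.8 in the library labelled colon, 3366 under the label brain, 75.7 under the label lung, 58.7 under the label heart and 15.7 under the label small intestine. The library labelled kidney was 1.30-fold that labelled colon, in which the kidney list was highest, and the difference was 5.76. On its own, Klk1 hardly separated the library labelled kidney from that labelled colon. The reads of the 15 other kallikreins summed to 7 in the library labelled kidney. Of the 16 kallikreins listed, 6 reached 1 RPKM in any library, and Klk1 alone was above. The study's methods, as written for its macrophage libraries, left out reads with more than 1 place, so that the value of Klk1 may rest on the windows that differ between the genes, such as the one in exon 5 printed above, and is uncertain for that reason.

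The 25 mRNAs with the largest difference had differences between 6.06 and 8.77, and the same 25 led with Kri1 left out of the totals. They took 12.7% of all reads, or 16.3% without Kri1, each with at least 174 reads. The library labelled kidney was the highest of the 6 for 23 of them. In order of the difference they were Cyp2c55, Mptx1, Saa1, Guca2a, Muc2, Dmbt1, Agr2, Prss32, Sycn, Fam3d, Clca1, Car1, Muc13, Adamdec1, Gpa33, Slc26a3, Lypd8, Rep15, Slc6a14, Fcgbp, Aqp8, Gpr15lg, Muc17, 1810065E05Rik and Ceacam1. Of these, 14 belong to at least 1 of the gene lists, which were chosen with earlier results of these data known. The paragraphs that follow take the 25 mRNAs by their level in the other libraries.

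**Figure D3:**
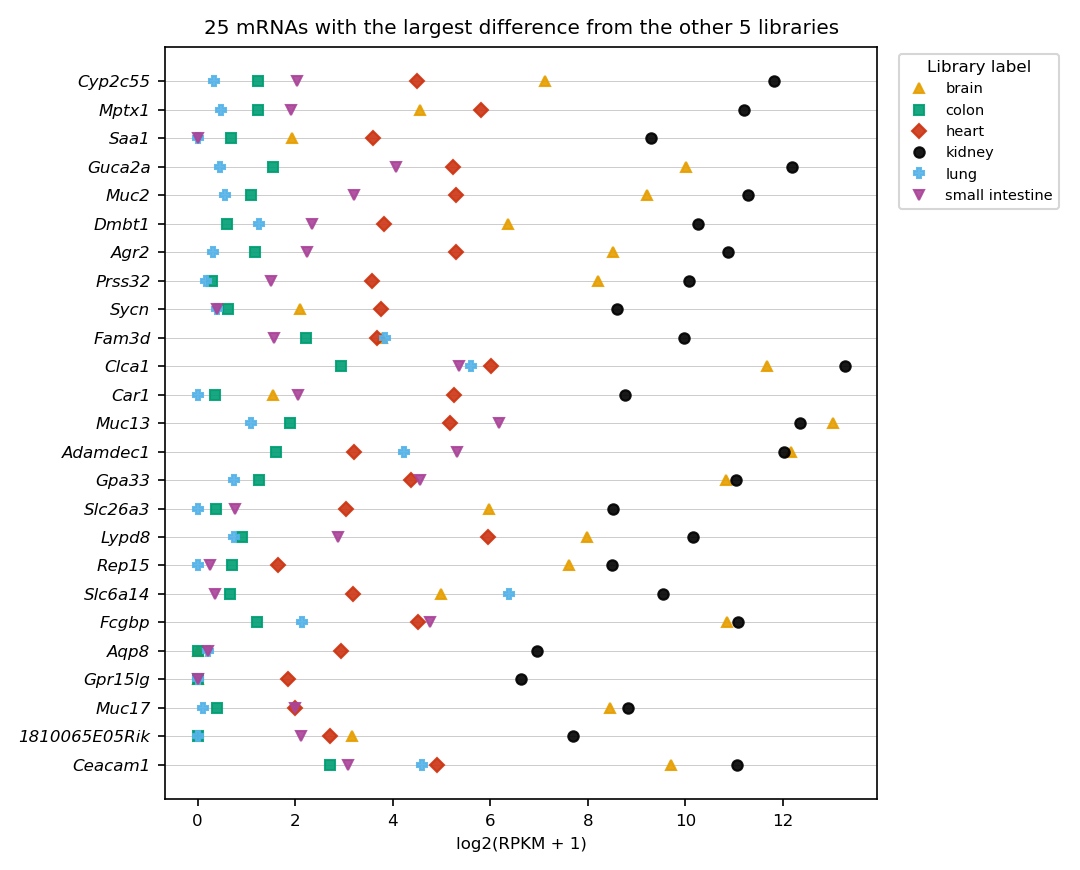
log2(RPKM + 1) of the 25 mRNAs with the largest difference in each of the 6 libraries, with 1 symbol per library and mRNAs ordered by the difference. The black points of the library labelled kidney lie furthest right for 23 of the 25, and the library labelled brain exceeds it for Muc13 and Adamdec1.

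Cyp2c55, a cytochrome P450 of the colon, led the order with a difference of 8.77. Cyp2c55 had 3596 RPKM here, against 137 in the library labelled brain, 21.7 under the label heart, 3.11 under the label small intestine, 1.36 under the label colon and 0.264 under the label lung. The level was 26.2-fold the next library. Only 1.46% of its windows of 29 nt occur in other genes of the Cyp2c family. Mptx1, a mucosal pentraxin, had a difference of 8.41 and 2367 RPKM here, 42.8-fold the library labelled heart, and 23.7% of its windows occur in Mptx2. Saa1, an acute-phase serum amyloid A, had 624 RPKM here, 56.6-fold the next library, although 42.9% of its windows occur in Saa2 or Saa3, so that its value is uncertain. These 3 were at least 26.2-fold above every other library.

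Guca2a encodes guanylin, the peptide ligand of the guanylate cyclase that drives salt and water secretion into the gut. Guca2a had 4628 RPKM here, against 1026 in the library labelled brain, 36.9 under the label heart, 15.8 under the label small intestine, 1.91 under the label colon and 0.372 under the label lung. Its paralogue Guca2b, uroguanylin, had 19.3 RPKM here and 421 RPKM in the library labelled brain. The ligands of this 1 receptor therefore stood on opposite sides of the library labelled brain, with 2.17 for guanylin and -4.38 for uroguanylin as the log2(RPKM + 1) here minus that library.

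Fam3d, Sycn and Gpr15lg were low in every other library. Fam3d, a secreted cytokine-like protein of the gut, had 1003 RPKM, 75.2-fold the next. Sycn, syncollin of secretory granules, had 384 RPKM, 30.8-fold the next. Gpr15lg, the ligand of the homing receptor GPR15 of colonic lymphocytes, had 98.1 RPKM from 174 reads, at least 34.5-fold every other library when a library without reads is set to 3 reads. For these 3 the library labelled brain stood far below, at 12.8 RPKM or less.

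Dmbt1, a scavenger receptor protein of mucosal surfaces, had 1231 RPKM here and 81.2 in the library labelled brain. Slc6a14, a carrier of amino acids, had 743 RPKM here and 82.0 in the library labelled lung. The serine protease Prss32 and the Rab15 effector Rep15 were 3.64-fold and 1.83-fold the library labelled brain, at 1074 and 358 RPKM. All 4 were highest here.

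Another group was shared with the library labelled brain. Muc13 and Muc17 encode transmembrane mucins, Gpa33 a surface antigen of gut epithelium and Adamdec1 a secreted metalloprotease of the lamina propria. Muc13 had 5230.2 RPKM here and 8294 in the library labelled brain, Muc17 452 and 349, Gpa33 2113 and 1832, and Adamdec1 4156 and 4553. The level in the library labelled brain was a median of 19.4% of that here over the 25 mRNAs, with a range from 0 to 159%, and it exceeded 10% for 14. The corresponding median was 1.18% under the label heart, 0.330% under the label small intestine, 0.0653% under the label colon and 0.0191% under the label lung. The library labelled heart came second for 6 of the 25, with at most 8.63% of the level here.

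Lypd8 and 1810065E05Rik lie next to each other in the order of chromosome 11 on this list, at 58269863 to 58281554 and 58311920 to 58316851 of GRCm39, both on the plus strand. Lypd8 encodes an anchored surface protein that keeps flagellated bacteria from the epithelium. Lypd8 had 1131 RPKM here, against 253 in the library labelled brain, 61.3 under the label heart, 6.33 under the label small intestine, 0.871 under the label colon and 0.676 under the label lung. The other gene has no named function in the files, and its mRNA had 205 RPKM here, 25.6-fold the next library. No window of either CDS occurs in another gene.

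All goblet cell mRNAs listed were above the other libraries, and 12 of them were with a pseudocount of 10. Of 16 listed, 16 were above, against 5.39% of all mRNAs, and 15 were highest here, against 8.75%. Their median difference was 4.77, and together they took 8.06% of all reads, or 10.3% without Kri1. Clca1, a secreted protease that processes mucus, was the fifth highest mRNA of the library with 9861 RPKM, 3.05-fold the library labelled brain. Agr2, the disulfide isomerase needed for mucin assembly, had 1884 RPKM and was 5.15-fold the next library. Zg16, a lectin of the mucus that aggregates bacteria, had 2226 RPKM, and Fcgbp, a mucus protein bound to Muc2, had 2152 RPKM with part of its windows shared with Fcgbpl1 or Tecta.

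Against the library labelled brain alone, the goblet cell mRNAs were uneven. Of the 16, 8 were over it by at least 2, as were 10.1% of all mRNAs, and none was under it by that much. Best2, a chloride channel of colonic goblet cells, had 62.7 RPKM here, 29.2-fold the next library, and no reads in that labelled brain. Retnlb, the antibacterial resistin-like protein RELMβ, was 12.9-fold the next library, and had 1.79 RPKM in that labelled brain. Muc2, Agr2, Creb3l1, Galnt12, B3gnt6 and Spdef were the other mRNAs over it by at least 2. By contrast Fcgbp, Zg16, Tff3, Spink4 and Bcas1 differed from the library labelled brain by 0.10 to 0.56 only. Atoh1, the factor that commits crypt cells to secretory fates, was the 1 member higher there, at 97.3 RPKM against 70.5 here.

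The enzymes that build and modify mucin sugars followed the same side. Of 16 that could be compared, 15 were above, against 5.39% of all mRNAs, and 12 were highest here, against 8.75%, with a median difference of 3.75. With a pseudocount of 10 the count above was 8. B3galt5, a galactosyltransferase, had 491 RPKM here and at most 79.3 elsewhere. B3gnt7, which extends the chains, had 138 RPKM, 19.2-fold the next library. The core 3 synthase B3gnt6, an enzyme of colonic mucin, had 11.6 RPKM and was at least 20.4-fold every other library. Fut2, which adds the terminal fucose, had 78.8 RPKM and Chst4, a sulfotransferase, 51.4 RPKM, and neither exceeded 12.8 RPKM in another library. The exception was C1galt1c1, a chaperone of core 1 synthesis, at 1.93. St6galnac1 had no reads here, where 3 reads would give 0.251 RPKM, and it did not reach 1 RPKM in any library.

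Of 15 mRNAs for folding in the secretory pathway, 3 were above and 8 were highest here, against 5.39% and 8.75% of all mRNAs. Those above were Agr2, Ern2, the stress sensor of mucus-secreting epithelium with 42.4 RPKM, and the disulfide isomerase Pdia5 with 123 RPKM. The general chaperone Hspa5 had 1502 RPKM here and between 1254 and 1429.7 elsewhere. The list as a whole had a median difference of 0.92, and it summed to 11921.7 RPKM here and to at most 10725.5 RPKM elsewhere.

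Absorptive colonocyte mRNAs were above the other libraries for 18 of 19, against 5.39% of all mRNAs, with a median difference of 5.21. Of the 19, 11 were highest here, against 8.75% of all mRNAs. Aqp8, a water channel of surface colonocytes, had 123 RPKM here, 18.3-fold the library labelled heart, and no reads in the libraries labelled brain and colon. Car4, a membrane-bound carbonic anhydrase, had 371 RPKM against at most 83.7 elsewhere. Ceacam1, an adhesion molecule, had 2136 RPKM, with 45.4% of its windows shared with related genes. Krt20, a keratin of mature gut epithelium in general, had 1870.0 RPKM here and 10346 in the library labelled brain. The member with the smallest difference was Guca2b at 0.33. Relative to the library labelled brain, 8 of the 19 were over it by at least 2 and 3 were under it by at least 2, namely Guca2b, Krt20 and Tmigd1.

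Salt and water transporters were mixed. Of 25 listed, 13 were above and 2 below, against 5.39% and 2.95% of all mRNAs. The median difference was 2.01, and 10 were highest here, against 8.75%. With a pseudocount of 10 the count above was 6. Atp12a, the colonic proton-potassium pump, had 58.1 RPKM, 67.1-fold the next library. Slc26a2, a sulfate transporter, had 71.4 RPKM, and Slc9a2 and Slc9a3, both sodium-proton exchangers, had 64.6 and 32.1 RPKM. The water channel Aqp4 had 403 RPKM against 163 in the library labelled small intestine, in which the brain list was highest.

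The epithelial sodium channel was represented unevenly. Scnn1a had 41.8 RPKM from 666 reads here, Scnn1b 3.79 RPKM from 55 reads and Scnn1g 0.268 RPKM from 4 reads. All 3 subunits were highest in the library labelled lung, where Scnn1g had 307 RPKM. Scnn1g had the lowest difference of the list, -2.72. The anion exchanger Slc26a6 had 1.22 RPKM here and 217 in the library labelled brain, and was the other member below. Hsd11b2, which protects the mineralocorticoid receptor from glucocorticoids, had 22.7 RPKM here and 26.6 in the library labelled colon. Clca4a and Clca4b, near relatives of Clca1, were lower here than in the library labelled brain, with 33.9 and 9.12 RPKM against 196 and 758.

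Of 8 position factors of the hindgut that could be compared, 5 were highest here, against 8.75% of all mRNAs. Above the other libraries were 3, against 5.39% of all mRNAs, among them Hoxa13 and Hoxb13. Hoxa13 had 12.3 RPKM from 108 reads (interval 10.1 to 14.8), at least 21.4-fold every other library when those with fewer than 3 reads are set to 3. Hoxb13 had 13.5 RPKM from 88 reads, 3.49-fold the library labelled colon, which came second. Hoxd13 had 2.98 RPKM from 23 reads, at least 4.55-fold every other library. Their neighbours Hoxd10, Hoxd11 and Hoxd12 had no reads here, and Hoxd10 had 11.5 RPKM in the library labelled colon.

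Factors of gut epithelium in general were shared with the library labelled brain. Cdx2, the homeobox factor of all intestinal epithelium, had 16.8 RPKM here and 52.0 there, and Cdx1 8.86 and 7.72. The other 4 libraries did not exceed 0.421 RPKM for either. Gata4, which marks the upper small intestine among other organs, had 0.199 RPKM from 2 reads here and 6.95 in the library labelled brain. Of 22 mRNAs of intestinal epithelium of any segment, 20 were above and 8 were highest here, against 5.39% and 8.75% of all mRNAs. Relative to the library labelled brain their median was -0.86. Tspan1, a tetraspanin, was the 1 member over that library by at least 2, with 436 RPKM against 37.1. Vil1 and Myo1a, both of the brush border, had 128 and 149 RPKM here against 1330.3 and 966 there.

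Small intestine mRNAs were lower here than under the label brain. Of 21 enterocyte mRNAs, 20 were under the library labelled brain by at least 2, as were 6.52% of all mRNAs, and none was over it, while Fabp1, a fatty acid carrier of liver and upper intestine, differed from it by -1.48. Fabp6, the ileal bile acid carrier, had 149 RPKM here and 26087 there. Apoa1, an apolipoprotein of secreted lipid particles, had 159 and 30284 RPKM, and lactase, Lct, 1.23 and 283. The sum over the list was 2.07% of that in the library labelled brain. The library labelled brain is only 1 part of the mean of the other 5. Relative to that mean, 2 of these 21 were above, Fabp2 and Slc15a1, against 5.39% of all mRNAs. When the library labelled brain was left out of the mean, 11 were above.

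Paneth cell mRNAs showed the same with 1 exception. Of 9 compared, 8 were under the library labelled brain by at least 2. The defensin mRNA Defa21 had 158 RPKM here and 35598 there, lysozyme, Lyz1, 1.19 and 149, and the matrix metalloprotease Mmp7 5.93 and 266. The defensins are near-identical copies whose reads may not be told apart, so that their values are uncertain. Ang4, an antimicrobial ribonuclease made by Paneth and goblet cells, was the exception, with 207 RPKM here and 239.9 there. Without the library labelled brain in the mean, 4 of the 9 were above, in place of 1.

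**Figure D4:**
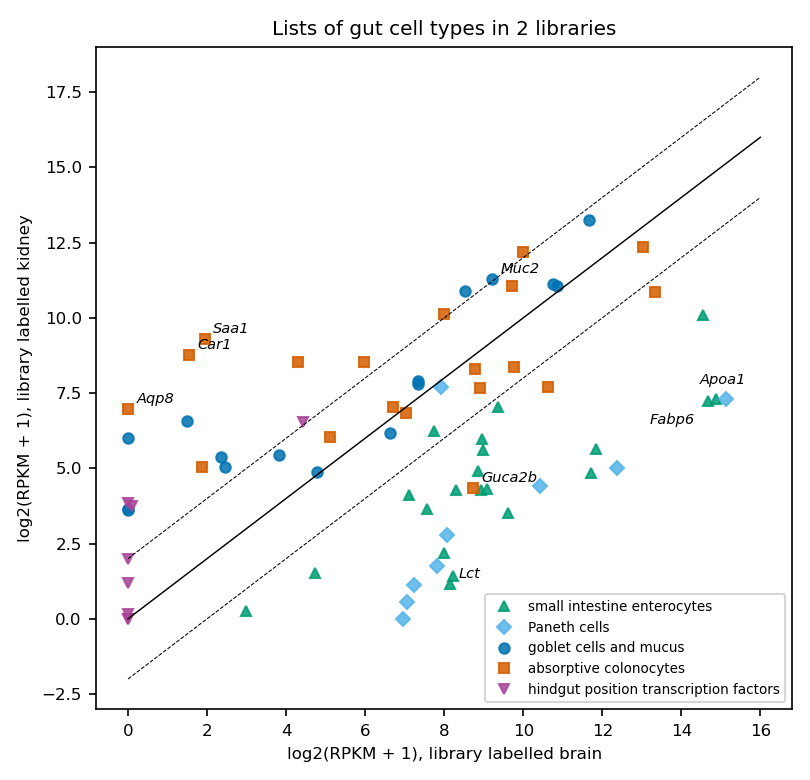
log2(RPKM + 1) in the library labelled kidney (y axis) against the library labelled brain (x axis), 1 point per mRNA, for 5 lists of gut cell types and position factors. The solid line marks equal values and the dashed lines a difference of 2. Of the enterocyte and Paneth cell mRNAs, 20 of 21 and 8 of 9 lie on or under the lower dashed line, and 8 of 16 goblet cell mRNAs lie over the upper one.

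Across all mRNAs the library labelled brain was the most similar to that labelled kidney, with a Spearman correlation of 0.770 over 15238 mRNAs. The values for the libraries labelled heart, colon, lung and small intestine were 0.706, 0.697, 0.665 and 0.531, and mRNAs are not independent, so these serve as a description of libraries that also differ in depth. Of the 822 mRNAs above the other libraries, 535 were also highest here, which is 3.51% of all compared, and the library labelled brain was second for 244 of them. Of the other 287, 190 were highest in the library labelled brain. Of the 822, 362 were over the library labelled brain by at least 2 and 26 were under it by at least 2.

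Mucosal defence mRNAs were above for 10 of 17 and highest here for 7, against 5.39% and 8.75% of all mRNAs. Reg3b, an antibacterial lectin, was the sixth highest mRNA of the library with 7212 RPKM, and Reg3g had 1016 RPKM, but both were higher in the library labelled brain, with 26262 and 4815 RPKM. Pigr, the receptor that carries immunoglobulin A across the epithelium, had 1944 RPKM, 1.88-fold that library. The oxidase pair Duox2 and Duoxa2 had 49.3 and 57.6 RPKM here and 58.0 and 117 there. Neutrophil mRNAs were low, with no reads of S100a9 here and 2 reads of Lcn2. The inducible synthase Nos2 had 0.346 RPKM from 9 reads.

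Enzymes of xenobiotic metabolism were above for 14 of 19, against 5.39% of all mRNAs, with a median difference of 3.37. The list was highest here in sum, with 5373 RPKM, most of it from Cyp2c55. Sult1a1, a sulfotransferase, had 100.4 RPKM here and 0.526 in the library labelled brain. Ces1g, a carboxylesterase, had 18.7 RPKM, 37.2-fold the next library, and the glucuronosyltransferase Ugt2b34 had 275 RPKM, close to the 236 of the library labelled brain. Cyp3a11, an oxidase of liver and upper intestine, had 5.41 RPKM here and 34.5 there. Members of these families resemble each other in sequence, so that reads may be split or lost between paralogues.

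Of 14 mRNAs of short-chain fatty acid and ketone use, 4 were above, against 5.39% of all mRNAs, and 2 with a pseudocount of 10. Slc16a1, a carrier of monocarboxylates such as butyrate, had 526 RPKM against at most 331 elsewhere. Slc5a8, the sodium-coupled carrier of the same acids, had 103 RPKM here, 109 in the library labelled brain and 94.8 in that labelled colon. Pparg, a lipid-sensing nuclear receptor, had 9.57 RPKM from 110 reads and at most 1.29 RPKM elsewhere. The enzymes of fatty acid oxidation were not above, with 155 RPKM of Acadm against 3527 in the library labelled colon.

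Enteroendocrine mRNAs differed by hormone. Of 14 compared, 8 were above and 3 were highest here, against 5.39% and 8.75% of all mRNAs. Insl5, an insulin-like peptide of distal colonic endocrine cells, had 50.3 RPKM from 166 reads (interval 43.0 to 58.6), at least 32.9-fold every other library. Gcg, the precursor of the glucagon-like peptides, had 97.2 RPKM here and 55.5 in the library labelled brain, and peptide YY, Pyy, 49.2 and 33.9. Gip and Nts, picked after their values were seen, were lower here than in that library. Gip, a hormone of the upper intestine, had no reads here, where 3 reads would give 0.916 RPKM, against 78.6 RPKM in the library labelled brain, and neurotensin, Nts, had 11.7 RPKM against 112. Chga, Chgb and Cck were higher in the library labelled small intestine, in which the brain list was highest.

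Smooth muscle mRNAs summed to 6860 RPKM here and to between 153 and 5504 RPKM in the other libraries. Whether they came from muscle of the gut wall was not tested. Of 15 smooth muscle mRNAs, 11 were above and 7 highest here, against 5.39% and 8.75% of all mRNAs, but without the library labelled small intestine in the mean 6 were above. Actg2, the actin of visceral smooth muscle, had 582 RPKM, 2.34-fold the library labelled brain, and calponin, Cnn1, had 351 RPKM, 2.10-fold the same. Myh11, the smooth muscle myosin, had 1095 RPKM here and 880.3 there. None of the 15 differed from the library labelled brain by 2 or more.

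The mRNAs listed for neurons, glia and pacemaker cells of the gut took fewer reads than the smooth muscle list. The neuropeptide Vip had 146 RPKM here, 117 in the library labelled brain and 193 in that labelled small intestine. Ano1, the chloride channel of pacemaker cells, had 55.5 RPKM here and 54.9 in the library labelled lung. The neuronal tubulin Tubb3 stood at 5.96 RPKM here, against 475 in the library labelled small intestine. Of the 15 mRNAs of this list, 4 were above, against 5.39% of all mRNAs, and 1 was with a pseudocount of 10.

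Lists of other cell types differed from each other. The fibroblast list had a median difference of 1.65 and the endothelial list one of -1.53. Of 10 fibroblast mRNAs, 3 were above, against 5.39% of all mRNAs, namely Col3a1, Dpt and Lum, and this count was 5 without the library labelled lung and 1 without that labelled small intestine. Of 25 immune cell mRNAs, none was above or below. The count above was 2 with Kri1 left out of the totals, against 7.25% of all mRNAs. It was also 2 without the library labelled brain, and 1 without those labelled heart or lung. Ptprc, the common leukocyte antigen, had 11.4 RPKM here and 69.6 in the library labelled lung, and Cd3e, Cd3g, Cd8a, Cd79a, Ms4a1 and Gzmb had no reads. Of 8 endothelial mRNAs, 8 had a negative difference and 1, Tek, was below, against 2.95% of all mRNAs. Sycn is also known from the pancreas, and of the pancreas list Cela1, an elastase known outside that organ too, had 41.3 RPKM here while every other member had at most 1 read.

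Of 13 stem and progenitor mRNAs of the crypt, 2 were above, Cd44 and Ephb2, against 5.39% of all mRNAs. Lgr5, the receptor of crypt base stem cells, had 2.18 RPKM from 45 reads here and 4.98 in the library labelled brain. Olfm4, a stem cell marker of the small intestine that is known to be low in the mouse colon, had 0.735 RPKM here and 252 there. Of 17 cell cycle mRNAs, 1 was above as deposited, Ccna2, which is a share near the 5.39% of all mRNAs. With Kri1 left out of the totals the count was 4, against 7.25% of all mRNAs. It was also 4 without the library labelled brain, and 2 without that labelled lung. Mki67 had 6.42 RPKM here and between 0.412 and 13.7 elsewhere. Of 5 tuft cell mRNAs that could be compared, none was above and Alox5ap was below.

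**Figure D5:**
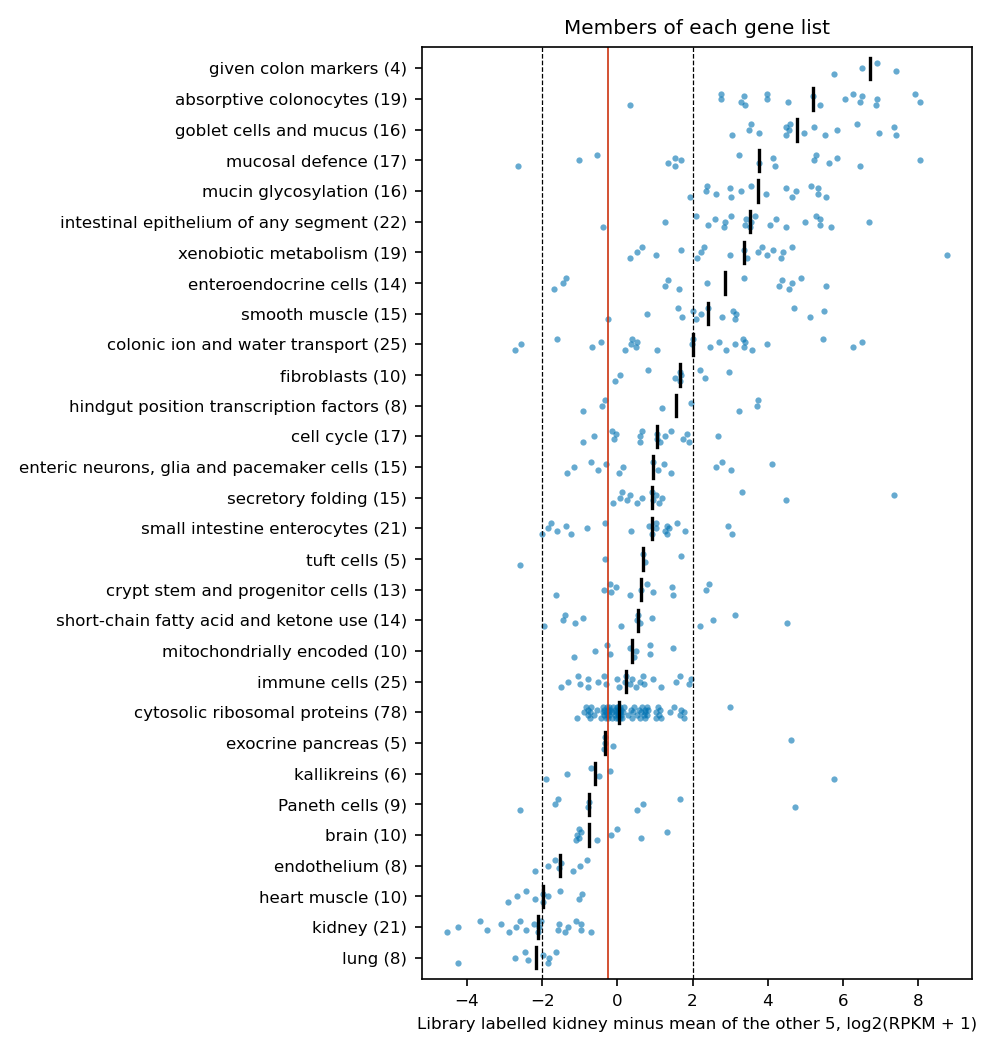
Difference of each list member between the library labelled kidney and the mean of the other 5 libraries, in log2(RPKM + 1), 1 point per mRNA, for 30 lists ordered by their median (black bars), with the number of members compared in brackets. The red line marks the median of all mRNAs, -0.24, and the dashed lines mark differences of 2 and -2. Lists of colonocytes, goblet cells and mucin glycosylation lie to the right, and those of kidney, heart muscle, lung and endothelium to the left.

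The 78 ribosomal protein mRNAs had a median difference of 0.06, with 1 above, Rpl13a at 3.00, and leaving out any 1 library gave between 2 and 4. With Kri1 left out of the totals, 4 were above, against 7.25% of all mRNAs. The 10 mitochondrially encoded mRNAs took 3.50% of reads, or 4.49% without Kri1, and none was above or below. mt-Atp6, a subunit of ATP synthase, and mt-Co1, of cytochrome oxidase, were the second and seventh highest mRNAs here with 30460.4 and 6213 RPKM. Both were higher in the library labelled heart. Rpl41, the smallest ribosomal protein, and S100a10, a calcium-binding protein of many epithelia, completed the 10 highest with 10284 and 5950.4 RPKM.

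The 10 mRNAs with the largest negative difference ranged from -5.73 to -3.98, with between 0 and 58 reads in the library labelled kidney. Of these, 6 were highest under the label colon, 3 under the label heart and 1 under the label lung. Spp1, osteopontin, which is abundant in renal tubules, had 0.447 RPKM from 3 reads here and 1407 in the library labelled colon. Calb1, a calcium buffer of the distal tubule and of neurons, had 1.01 RPKM here, 3169.6 in the library labelled colon and 227 in that labelled small intestine. Napsa, a protease of lung and kidney, had 2.62 RPKM here, 3049 under the label colon and 387 under the label lung. Pgam2, Ak1 and Myl4, of muscle energy use and contraction, were highest in the library labelled heart. Aif1l, Tdrp and Pkia had no reads here, and Rragd, a GTPase of nutrient sensing, had 1.07 RPKM.

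The kidney list had 13 of 21 members below, against 2.95% of all mRNAs, and none above, with a median difference of -2.10. When the library labelled colon is left out of the mean the count is 3 and the median -0.90, and without that labelled brain the count is 9. Lrp2, the endocytic receptor megalin of the proximal tubule, had 2.62 RPKM from 278 reads here, which was the most reads of any kidney list member other than Cubn, its partner, with 397. Cubn is also known in the small intestine and had 269 RPKM in the library labelled brain. Of 10 heart muscle mRNAs 4 were below, of 8 lung mRNAs 4 and of 10 brain mRNAs none, against 2.95% of all mRNAs. None of these was above. The median of the heart list was -1.97, and -0.25 without the library labelled heart in the mean. That of the lung list was -2.17, and -0.43 without the library labelled lung. The heart, lung and brain lists summed to 0.107%, 0.107% and 0.666% of their highest library. Like that of the kidney list, these sums were under 1% of the highest library.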

How the data were processed

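The 6 tissue Ribo-seq libraries were used as deposited. The authors gave RPKM per CDS in 1 table per library. The steps known come from the study's methods, which were written for its macrophage libraries: adapters were trimmed with Cutadapt, reads were aligned with STAR to the transcript with the longest CDS of each gene (Ensembl release 107, GRCm39), and reads with several places were left out. Alignment settings for the tissue libraries are not given in the sources used here.

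From the RPKM, whole reads were recovered as RPKM times CDS length over the smallest such product of the library, and 100% of values were whole within 0.01 of a read. Library totals were 4504853 to 10635031 reads. An mRNA that a table does not list was set to 0 there. Low values rest on few reads, and 3 reads served as the floor for mRNAs without reads. Groups were the tissue labels, with 1 library each, so no test was run. Differences used log2(RPKM + 1), a minimum of 1 RPKM in any library and a difference of 2 for a call. The text names the 25 mRNAs with the largest positive and 10 with the largest negative difference, the 10 with the highest RPKM, and from 30 gene lists the members highest and lowest in level or difference and the defining transcription factors; other list members named were chosen after their values were seen. Members and lists were chosen with earlier results of these data known. Of the list members, some were under the minimum and are counted out, and Defa17, Gnat3, Try4, S100a8, Saa3, Ugt1a6a and Ugt1a7c were not analysed here. Some list members that are counted are not reported here by name. Sequences and coordinates on GRCm39 came from GENCODE M39, and promoters from RefSeq.

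In all, 13 alternatives were tried: other pseudocounts (0.1 and 10), other filters on low values (none, or at least 10 reads), Kri1 or Kri1 and mitochondrial mRNAs left out of the totals, TMM factors computed directly, the median in place of the mean, and each other library left out. Scripts were tested on simulated data. Computing used pandas 2.3.3, numpy 2.4.6 and scipy 1.17.1 under Python 3.11.15, and drawing used matplotlib 3.10.9.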

Additional observations from a re-analysis of the deposited data

How the results depend on the processing

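Alternatives are set against 822 mRNAs above, 449 below and a median difference of -0.24. With a pseudocount of 0.1 there were 2186 above and 1413 below, and with 10 there were 219 above and 64 below, with 103 list members above in place of 155. The median difference was 0 when the median of the other libraries replaced their mean. TMM factors gave 1036 above and 342 below, so that 75.2% of calls were above, against 64.7% by the totals alone and 77.4% with a pseudocount of 10. Leaving out each of the other libraries in turn gave medians from -0.30 to -0.11, between 807 and 992 mRNAs above, between 483 and 766 below (766 without the library labelled brain), between 149 and 180 list members above and 22 to 23 lists with a median over that of all mRNAs. Medians of the Paneth cell list (0.90 without the library labelled brain), the brain list (0.77 without that labelled small intestine), the immune list (-0.01 without that labelled colon) and the ribosomal list (-0.12 without that labelled small intestine) had the other sign when 1 library was left out, and so did that of the pancreas list (0.13 without that labelled heart). The brain list then had 2 members above in place of none. With a pseudocount of 10 the count above was also lower for xenobiotic metabolism (9 in place of 14), smooth muscle (7 in place of 11), enteric neurons (1 in place of 4), position factors (1 in place of 3), fibroblasts (1 in place of 3) and crypt mRNAs (0 in place of 2). The same held for goblet cells (12 in place of 16), colonocytes (17 in place of 18) and intestinal epithelium (15 in place of 20). Mucosal defence had 7 in place of 10, and enteroendocrine cells 6 in place of 8. The count of kidney list members below, 13, was 4 with a pseudocount of 10, 7 with the median of the other libraries and 18 with a pseudocount of 0.1. The causes were not tested. Single differences were followed under the 13 alternatives only for the mRNAs named by rank of difference or level and the given colon markers. None of those called changed sign. Most were named for their large differences, so a change of sign was unlikely beforehand. Of these single differences, 165 moved by 0.5 or more and 381 by less. No paired analysis was possible because each tissue has 1 library. Depth limits mRNAs with few reads, among them Hoxd13 and Hoxa11 with 23 and 9 reads in the library labelled kidney.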
